A study of Mus musculus with 11 samples.

Results

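A group of STAT5A ChIP-seq peaks lay far from any H3K4me3 in the mammary gland of early pregnancy: 1575 of the 8735 peaks on chromosomes 1 to 19, or 18.0% (exact 95% interval 17.2 to 18.9), were separated from the nearest H3K4me3 region by more than 100 kb. They were chosen by that gap alone, measured in the mouse build mm9 from the nearer edge of the peak to the nearer edge of the closest region on the same chromosome, and are called far peaks below. The gap is a measured value, so the number of far peaks and their distances are given as a description. The other 7160 peaks comprised 3734 at 10 to 100 kb from a region, 1638 within 10 kb and 1788 on a region.

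The series asks how STAT5 recruitment and H3K4me3 follow each other at mammary genes, and 2 of its 11 labelled samples were used here. Both lists came from whole mammary tissue of wild-type mice of the background 129SV::FVB/N::C57BL/6 at day 6 of pregnancy, with 1 STAT5A ChIP-seq library and 1 H3K4me3 ChIP-seq library and no other treatment or allele in the labels. The labels do not say how many mice gave the tissue. With 1 library per antibody nothing could be set against replicate error and no test was run, and every interval below covers counting error only, treating peaks as independent although neighbouring peaks share their place. Whole tissue pools cell types, so binding in few cells and weak binding in many cells cannot be told apart, and the tissue label was not tested against marker genes, which peak lists do not hold. The 14296 H3K4me3 regions on these chromosomes are the reference points for all distances, and the depth of both libraries is unknown.

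STAT5A is a transcription factor that waits in the cytoplasm until a cytokine receptor, in the mammary gland chiefly the prolactin receptor, activates the kinase JAK2. JAK2 phosphorylates STAT5A, which dimerises, enters the nucleus and binds DNA at interferon-gamma-activated sequence elements, in promoters as well as in enhancers that can lie far from the genes they act on. H3K4me3, the trimethylation of a lysine in the tail of histone H3, marks the promoters of active or poised genes, whereas active enhancers are better known for H3K4me1 and H3K27ac. Far peaks are thus STAT5A peaks in long stretches with no called promoter mark at this stage, and what genes or sequences lie at them in mm9 was not analysed here.

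The gaps of far peaks had a median of 187 kb, with quartiles of 133 and 305 kb and a maximum of 4070 kb. Of the 1575 peaks, 864 lay 100 to 200 kb from a region, 543 at 200 to 500 kb, 114 at 500 kb to 1 Mb and 54 farther than 1 Mb. Most far peaks therefore lay not long past the threshold. Just inside it were peaks at chr5:88305757-88305971, at chr2:39182319-39182533 and at chr11:55127246-55127460, at 100.04, 100.1 and 100.1 kb and with scores of 13.2, 4.8 and 7.2. Just outside it were peaks at chr19:40446474-40446688, at chr10:40249490-40249704 and at chr11:22287740-22287954, at 99.97, 99.9 and 99.8 kb and with scores of 5.7, 4.5 and 15.4. Scores of similar size thus stood on both sides of the threshold.

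The most remote far peak lay at chr6:77335443-77335657, at 4070 kb from the nearest region and with a score of 5.1. It shared its H3K4me3-free interval, 8608 kb long, with 2 other far peaks at chr6:76408290-76408504 and chr6:76418034-76418248, whose scores were 9.9 and 6.2. These 2 stood 9.53 kb apart. Next came a peak at chr8:102199786-102200000, at 3107 kb and with a score of 5.1, and a peak at chr1:27923293-27923507, at 3006 kb and with a score of 8.9. The last of these had no other STAT5A peak within 3167 kb. The scores of these 5 most remote peaks all lay below 10, inside the range that most peaks of the list occupied.

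The score deposited with each peak, on which the rule did not rest, is the authors' own value on a scale that no header or label states, and serves only to rank peaks within the list. Far peaks had nearly the same scores as the other peaks away from H3K4me3. Their median score was 6.2 (quartiles 5.1 and 8.3), against 6.4 (5.1 and 8.6) for peaks at 10 to 100 kb, 6.0 (4.9 and 8.3) for peaks within 10 kb and 5.4 (4.8 and 6.7) for peaks on a region. A score of at least 11.1, which 10.2% of all 8735 peaks reached and which defines high-scoring peaks below, was reached by 170 far peaks (10.8%, interval 9.30 to 12.4). It was reached by 12.2% of peaks at 10 to 100 kb (11.1 to 13.2), by 12.0% within 10 kb (10.4 to 13.6) and by 3.91% on a region (3.06 to 4.92). The interval of the far peaks overlapped those of both other groups off H3K4me3 and held the background share of 10.2%, so no difference from these groups was detectable. It lay above that of the peaks on a region. A score of at least 20 was reached by 17 far peaks (1.08%, 0.63 to 1.72), an interval that held the 1.33% of all 8735 peaks. The share was 1.74% at 10 to 100 kb (65 peaks, 1.35 to 2.21), 1.59% within 10 kb (1.04 to 2.32) and 0.45% on a region (0.19 to 0.88).

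**Figure D1:**
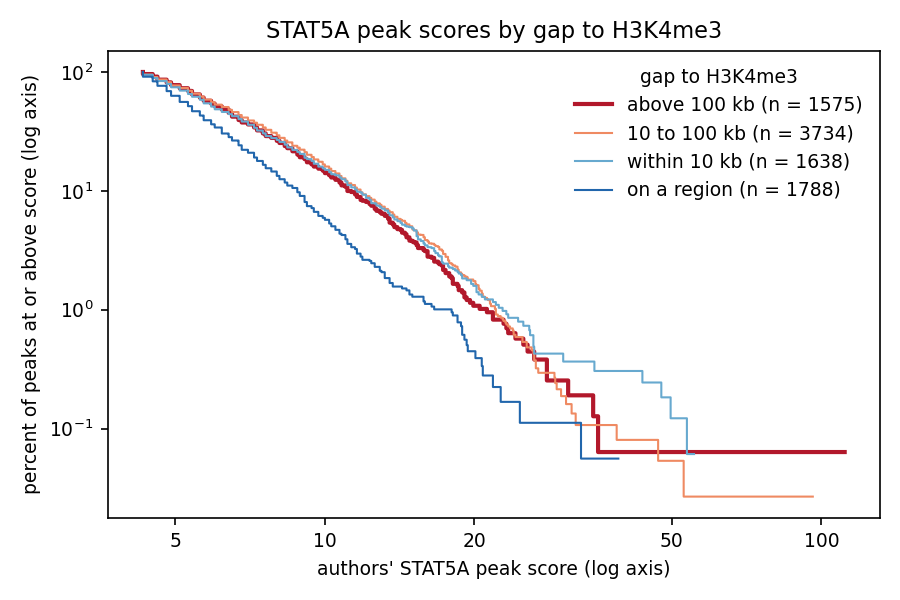
Percent of STAT5A peaks (y, log axis) with at least the authors' score on the x axis (log axis), for peaks above 100 kb from an H3K4me3 region, at 10 to 100 kb, within 10 kb and on a region. The curve of the 1575 far peaks runs close to those at 10 to 100 kb and within 10 kb, while the curve of peaks on a region lies lower, and 1 far peak extends to a score of 111.4.

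Within the far peaks the score showed almost no relation to distance. Spearman's rho between gap and score was -0.01 over the 1575 peaks, which share 1 library. The median score was 6.2 at 100 to 200 kb, 6.2 at 200 to 500 kb, 5.7 at 500 kb to 1 Mb and 6.1 beyond 1 Mb. High-scoring peaks made up 11.8% of peaks at 100 to 200 kb (9.73 to 14.1), 9.58% at 200 to 500 kb (7.23 to 12.4), 10.5% at 500 kb to 1 Mb (5.56 to 17.7) and 7.41% beyond 1 Mb (2.06 to 17.9). All 4 intervals overlapped.

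A single far peak stood apart by its score. It lay at chr3:5860578-5860792, with a score of 111.4, which was 3.14 times the next highest far score. It was 284 kb from the nearest region, which spanned 1665 bp, and the only other peak in its H3K4me3-free interval, 255 kb away, had a score of 4.8. This peak thus combined the highest autosomal score with hardly any STAT5A peaks around it. No input library was used here, so its signal without the STAT5A antibody was not analysed here.

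The second highest far score belonged to an interval crowded with STAT5A peaks. The peak lay at chr8:129260475-129260689, with a score of 35.5, at 141 kb from an H3K4me3 region 8612 bp wide. Its interval was 349 kb long and held 21 STAT5A peaks, of which 8 were far peaks. The scores of the other far peaks there were 4.9, 4.9 and 14.6 between 129280207 and 129287783, and 19.1, 8.1, 11.8 and 7.8 between 129328135 and 129331643. High and low scores thus alternated over short distances.

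The third highest score, 34.7, belonged to a far peak at chr5:88353525-88353739, at 148 kb from a region 1095 bp wide. The same interval, 777 kb long, held 3 further far peaks between 88305757 and 88307784, with scores of 13.2, 5.4 and 7.8, and a peak of score 5.6 at chr5:88299205-88299419, just short of the threshold at 93.5 kb. All 5 STAT5A peaks of this interval thus lay at least 93.5 kb from both of its ends.

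Most of the other far peaks among the 10 highest had a close partner. The peak at chr4:3016682-3016896, with a score of 30.9, stood next to one of score 14.5 that was also the first coordinate of either list on that chromosome. The peak at chr3:149159237-149159451, with a score of 28.0, had a neighbour of score 4.5 at 742 bp. The peak at chr8:10871193-10871407, also at 28.0, was 1 of 4 linked peaks at 130 kb from a region 8479 bp wide. The remaining 4 of the 10 highest were at chr5:75854435-75854649, at chr10:94605462-94605676, and at chr1:81924382-81924596 and chr1:139648278-139648492, with scores of 26.4, 25.6, 25.1 and 24.2. The gaps of the 10 ran between 116 and 334 kb with a median of 144 kb, while the median gap of all far peaks was 187 kb. Over all 1575 far peaks, gap and score had a Spearman's rho of -0.01, so these 10 do not show a general relation. Another STAT5A peak within 12.5 kb was present for 6 of the 10 (60%, 26.2 to 87.8). It was present for 24.6% of all far peaks and 32.9% of all 8735 peaks, and the wide interval of the 10 held the latter share. Their nearest regions ranged widely: 3 were more than 4 kb wide and 3 had the minimum width of the list, found for 14.0% of all far peaks.

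Far peaks were sparse for the length of sequence available to them. Sequence beyond 100 kb from every H3K4me3 region made up 53.5% of the autosomal span, 1287 Mb, and held the 18.0% of peaks that are far. This came to 1.22 far peaks per Mb (Poisson interval 1.16 to 1.29), against 4.37 per Mb at 10 to 100 kb (4.23 to 4.52), 6.73 within 10 kb (6.41 to 7.07) and 74.8 on regions (71.4 to 78.3). The density at 10 to 100 kb was thus 3.58 times that of far sequence. Because the gap itself defines these groups, the densities are a description. Unassembled and repeated stretches were not taken out of the lengths.

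The fall in density went on within far sequence. There were 2.51 peaks per Mb at 100 to 200 kb (2.35 to 2.69), 1.19 at 200 to 500 kb (1.09 to 1.29), 0.44 at 500 kb to 1 Mb (0.36 to 0.52) and 0.24 beyond 1 Mb (0.18 to 0.31). None of these 4 intervals overlapped. Density was therefore graded with distance on both sides of 100 kb, since the 3.69 peaks per Mb at 50 to 100 kb (3.49 to 3.91) continued the same order. Scores, as given above, showed no such gradient.

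**Figure D2:**
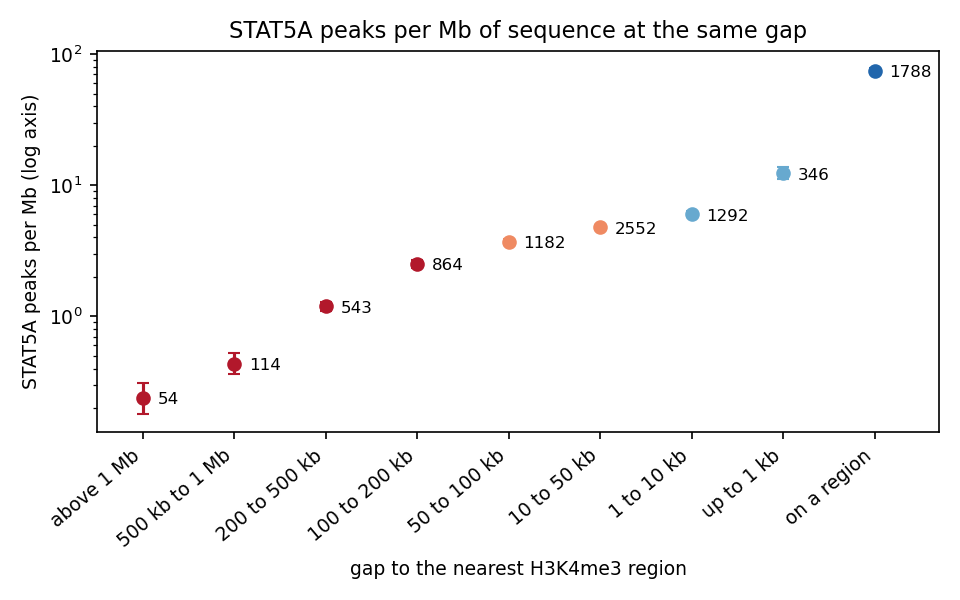
STAT5A peaks per Mb of sequence (y, log axis) at each gap to the nearest H3K4me3 region (x), with exact 95% Poisson intervals and the number of peaks beside each point. Far peaks are the 4 points at the left, where density was 0.24 per Mb beyond 1 Mb and 2.51 per Mb at 100 to 200 kb.

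Far peaks were spread over many H3K4me3-free intervals. Between neighbouring regions, 2383 intervals were long enough to hold a far peak, and 786 of them did (33.0%, 31.1 to 34.9). These held 1563 of the far peaks, and the other 12 lay beyond the first or last region of a chromosome. A single far peak was found in 414 intervals, 2 in 190, 3 in 92, 4 in 43 and 5 or more in 47. The 47 fullest intervals together held 321 far peaks, 20.4% of the total. Far peaks lay about as often nearer to the region before them (769) as to the region after them (794).

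Longer intervals were more often occupied but more thinly. A far peak was found in 20.9% of the 1356 intervals of 0.2 to 0.5 Mb (18.7 to 23.1), in 44.5% of the 580 intervals of 0.5 to 1 Mb (40.4 to 48.6), in 54.0% of the 287 intervals of 1 to 2 Mb (48.05 to 59.9) and in 56.2% of the 160 longer ones (48.2 to 64.1). Per Mb of their interior, beyond 100 kb from both ends, the same 4 classes held 3.16 (2.89 to 3.46), 1.85 (1.70 to 2.01), 1.05 (0.95 to 1.17) and 0.40 far peaks (0.34 to 0.45). The outer 100 kb of the same intervals held 4.56 (4.31 to 4.82), 3.09 (2.78 to 3.43), 2.61 (2.21 to 3.07) and 2.87 peaks per Mb (2.32 to 3.53). The difference between interior and outer parts was therefore small in the shortest intervals and large in the longest. The outer part had 1.44 times the density of the interior in the shortest and 7.26 times in the longest. Interiors of longer intervals also reached farther from a region, so length and distance changed together across these classes. In intervals longer than 1 Mb, density was 2.49 per Mb at 10 to 100 kb and 1.80 at 100 to 200 kb, a smaller step.

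**Figure D3:**
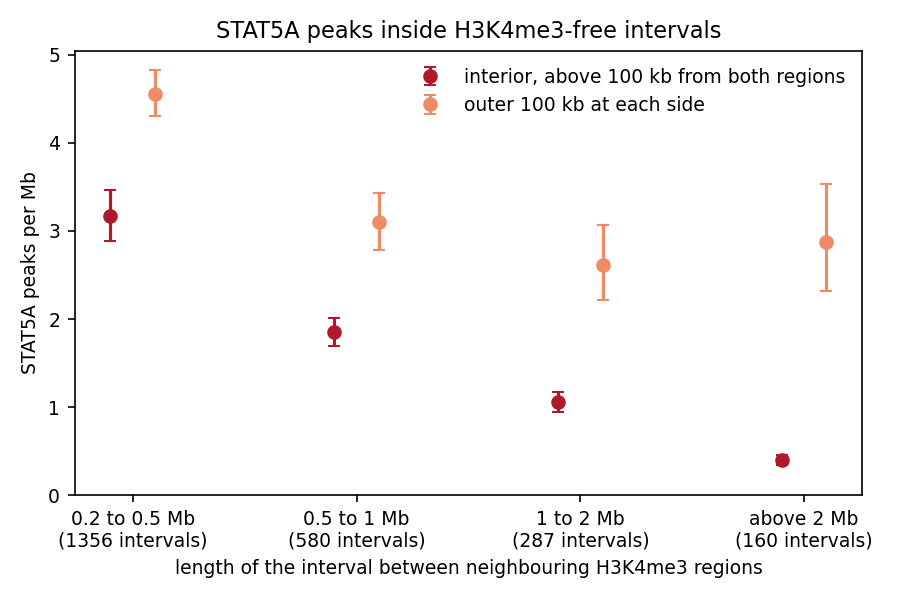
STAT5A peaks per Mb (y) in H3K4me3-free intervals of 4 length classes (x), in the interior more than 100 kb from both bounding regions and in the outer 100 kb at each side, with exact 95% Poisson intervals. The interior holds 3.16 peaks per Mb in the shortest class and 0.40 in the longest, while the outer parts stay between 2.61 and 4.56.

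The decline with distance was also seen inside long intervals. In the 447 intervals longer than 1 Mb there were 1.80 far peaks per Mb at 100 to 200 kb from the nearer region (1.53 to 2.10), 1.04 at 200 to 300 kb (0.84 to 1.27), 0.74 at 300 to 500 kb (0.62 to 0.88) and 0.34 farther in (0.29 to 0.39). In the same intervals 2.49 peaks per Mb lay at 10 to 100 kb (2.15 to 2.86) and 4.70 within 10 kb (3.39 to 6.35). The gradient over all peaks was thus also present among intervals longer than 1 Mb. Length still varied among these, and longer ones gave more of the sequence beyond 500 kb.

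Single intervals differed greatly. The most far peaks, 15 each, lay in an interval of 1980 kb at chr4:144836972-146817137, with scores of 4.8 to 14.6, and in one of 1112 kb at chr13:102571942-103683460, with scores of 4.8 to 13.8. A further 11 far peaks lay in an interval of only 700.4 kb at chr15:50722541-51422977, with a median score of 8.3, and 11 in one at chr15:61871011-63828669, with a median of 7.2. The fifth, at chr2:44973238-48668777, held 9 far peaks in 3696 kb, with scores of 4.8 to 9.7. The interval of 700.4 kb had 22.0 far peaks per Mb of its interior, against 1.22 over all far sequence. By contrast, the longest interval of all, 12.2 Mb at chr15:13103216-25341796, held no STAT5A peak, far or near.

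Far peaks were more widely spaced than the rest, yet many were grouped. The distance from a far peak to the nearest other STAT5A peak had a median of 60.9 kb (quartiles 12.9 and 214 kb), against 27.2 kb (7.41 and 74.5 kb) for peaks at 10 to 100 kb, 16.7 kb for peaks within 10 kb and 39.1 kb for peaks on a region. Another peak within 12.5 kb, found for 32.9% of all 8735 peaks, was present for 388 far peaks (24.6%, 22.5 to 26.8). The share was 33.4% at 10 to 100 kb (31.9 to 35.0), 44.9% within 10 kb (42.5 to 47.4) and 28.3% on a region (26.2 to 30.5). The far share lay below the other 2 groups off H3K4me3 by more than counting error, and its interval overlapped that of the peaks on a region. Neighbours within a fixed distance are rarer where peaks are sparse. Density was 1.22 per Mb in far sequence, against 4.37 at 10 to 100 kb and 6.73 within 10 kb. Whether far peaks were more or less grouped than their density implies was not tested. No other peak within 1 Mb was found for 35 far peaks (2.22%, 1.55 to 3.08), against 0.87% of all 8735 peaks. The share was 0.59% at 10 to 100 kb (22 peaks, 0.37 to 0.89), 0.24% within 10 kb (0.07 to 0.62) and 0.84% on a region (0.47 to 1.38). This share, too, depends on the density of peaks.

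**Figure D4:**
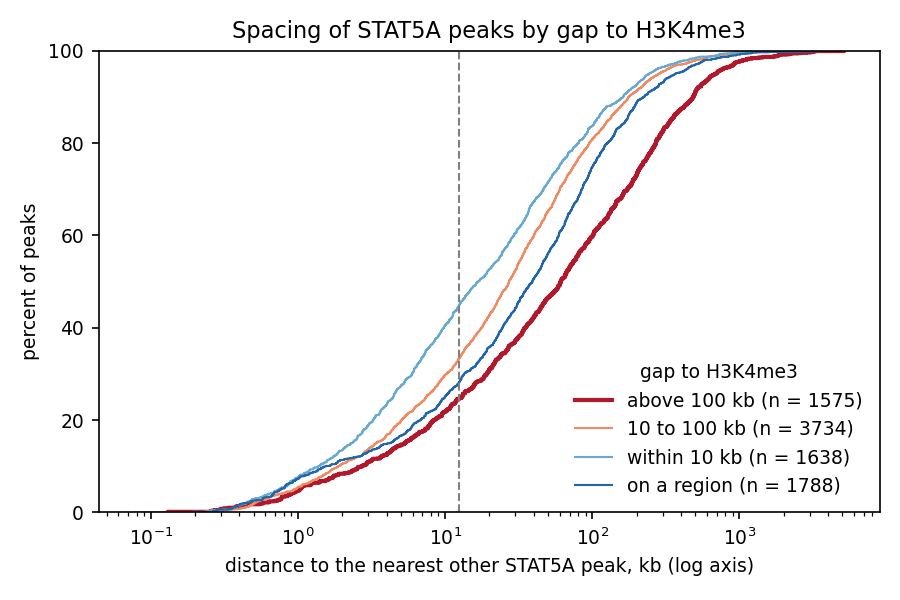
Cumulative percent of STAT5A peaks (y) by distance to the nearest other STAT5A peak in kb (x, log axis), for peaks above 100 kb from H3K4me3, at 10 to 100 kb, within 10 kb and on a region. The dashed line marks 12.5 kb, where the curve of far peaks stands at 24.6% and that of peaks at 10 to 100 kb at 33.4%.

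Linked at 12.5 kb, the 1575 far peaks occupied 1363 places, of which 1187 were single peaks. The other 176 places held 2 or more peaks. In 159 of these all peaks were far, and 17 also held a peak on the near side of the threshold. Pairs of far peaks were the usual form, with 130 places of exactly 2 far peaks, 34 of 3 or more and 2 of 5 or more. Among clustered far peaks the nearest neighbour lay within 1 kb for 19.1%, at 5 to 12.5 kb for 40.7%, and between these distances for the rest. For clustered peaks at 10 to 100 kb the corresponding shares were 16.6% and 40.6%. Far peaks were less often clustered, then, while the spacing inside clusters took similar values in both groups.

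The largest cluster of far peaks lay at chr1:85071740-85095812, with 6 peaks in 24.1 kb at 140 to 156 kb from a region. Their scores, in order along the chromosome, were 11.8, 6.2, 15.4, 23.2, 16.6 and 5.1, so that the highest stood inside the cluster. Next came 5 peaks in 27.3 kb at chr13:12995261-13022540, with scores of 5.1, 7.6, 6.5, 5.9 and 5.3, all low. Of the clusters with 4 far peaks, the first in chromosome order was at chr2:141104910-141124747, 608 to 627 kb from a region and with scores of 6.2, 6.8, 11.1 and 6.4. Large clusters of far peaks were therefore not always high-scoring.

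Clustered far peaks nevertheless had somewhat higher scores as a group. Their median was 6.4 (quartiles 5.3 and 8.9, n = 388), against 6.0 (5.1 and 8.0, n = 1187) for the other far peaks. High-scoring peaks made up 14.4% of clustered far peaks (11.09 to 18.3) and 9.60% of the others (7.99 to 11.4), 2 intervals that overlapped slightly. At 10 to 100 kb the corresponding shares were 17.1% (15.1 to 19.4) and 9.65% (8.52 to 10.9). Whether the relation of clustering and score differs between far peaks and those at 10 to 100 kb was not tested.

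The width of the nearest H3K4me3 region differed little between far peaks and the other peaks off H3K4me3. The nearest region had a median width of 1465 bp for far peaks (quartiles 893 and 2227 bp). The median was 1588 bp (946 and 2206 bp) for peaks at 10 to 100 kb, 1545 bp within 10 kb and 1666 bp for peaks on a region. Regions that carried a peak had a median of 1639.5 bp counted once each. All 14296 regions had a median of 1323 bp. The authors' score of the nearest region had a median of 244 for far peaks, 254 at 10 to 100 kb, 243 within 10 kb and 332 on a region. A nearest region of minimum width, found for 10.0% of all peaks, was present for 220 far peaks (14.0%, 12.29 to 15.8), against 11.4% at 10 to 100 kb (10.4 to 12.5), 10.7% within 10 kb (9.23 to 12.28) and 3.02% on a region (2.28 to 3.92). Of all regions, 10.8% had this width. The far interval lay above the one on a region and narrowly above the one within 10 kb, and it overlapped the one at 10 to 100 kb. For peaks on a region the nearest region is the one they overlap. Wider regions offer more sequence to overlap, so the contrast with that group is partly built in. The 1575 far peaks shared 931 nearest regions, which had a median width of 1418 bp counted once each. Of these 931 regions, 12.7% had the minimum width. The share was 11.2% of the 2492 regions nearest to peaks at 10 to 100 kb and 10% of the 1390 nearest to peaks within 10 kb. No intervals were computed for these shares per region, and the intervals per peak count a shared region more than once. The narrow separation from peaks within 10 kb therefore holds per peak only and does not settle whether the regions differ. High-scoring far peaks had nearest regions of 1388 bp at the median and other far peaks of 1473 bp.

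Chromosomes differed in how many of their STAT5A peaks were far. The share was highest on chromosome 13, where 147 of 503 peaks were far (29.2%, 25.3 to 33.4), and lowest on chromosome 11, where 54 of 642 were (8.41%, 6.38 to 10.8). Chromosome 11 had the most H3K4me3 regions per Mb, 10.4, and the least far sequence, 39.0% of its span. Over the 19 autosomes the far share fell as region density rose (Spearman's rho -0.72), a relation that the rule itself builds in. Counted per Mb of far sequence, the density of far peaks had hardly any relation to region density (rho 0.12). All 19 points come from the same 2 libraries.

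Chromosome 13 stood out also per Mb of far sequence. It held 2.38 far peaks per Mb (2.01 to 2.79), against 1.17 over the other 18 chromosomes (1.11 to 1.23), which is 2.04 times as many. Among those 18 the density ran between 0.73 on chromosome 7 (0.56 to 0.94) and 1.58 on chromosome 9 (1.27 to 1.94). Nearer to H3K4me3 chromosome 13 differed less from the rest: it had 4.73 peaks per Mb at 10 to 100 kb (4.10 to 5.42), against 4.35 on the other chromosomes (4.21 to 4.50), and 7.84 within 10 kb (6.23 to 9.73), against 6.68 (6.36 to 7.02), with overlapping intervals in both cases. Its far peaks lay in 50 intervals and in 12 of the 13 windows of 10 Mb that cover the chromosome, with 4 to 22 in each of the 12. Without the peaks of its 5 fullest intervals but with their length kept, a setting chosen after seeing the data, the density was 1.39 times that of the others (1.13 to 1.69), a value that the choice of the fullest intervals lowers by itself. The median score of far peaks on chromosome 13 was 5.9, against 6.2 on the other 18, and 6.80% were high-scoring (3.31 to 12.2), against 11.2% (9.61 to 13.0).

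**Figure D5:**
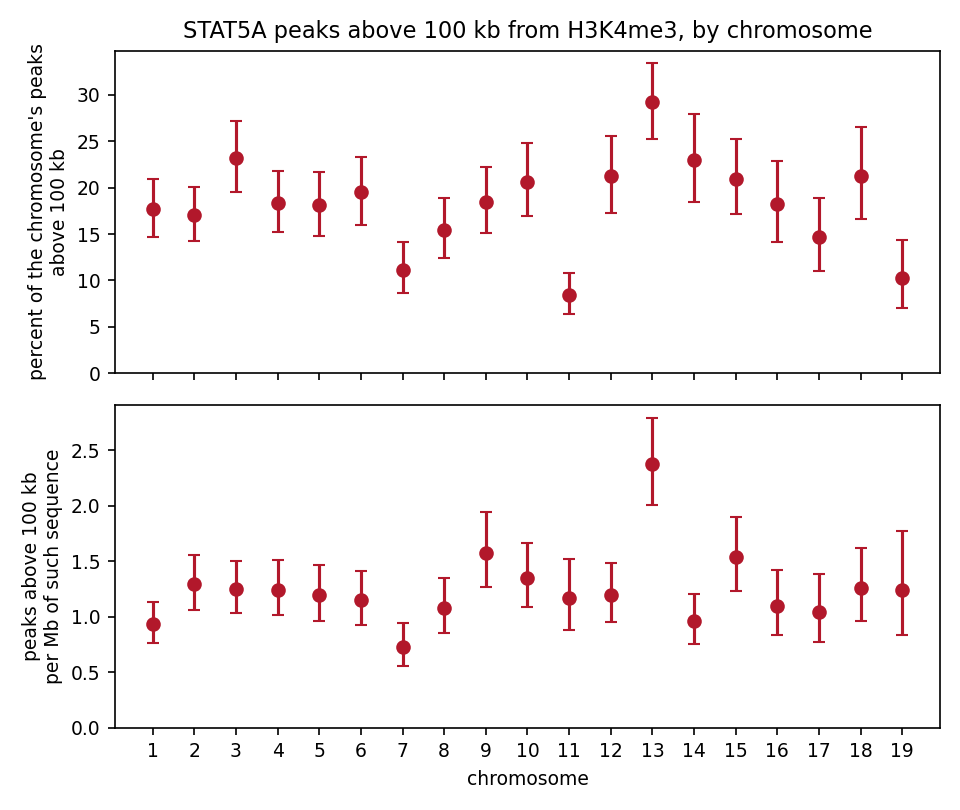
Far STAT5A peaks on each of chromosomes 1 to 19 (x): the upper panel gives their percent of the chromosome's peaks with exact 95% binomial intervals, and the lower panel their number per Mb of sequence beyond 100 kb from H3K4me3 with exact 95% Poisson intervals. Chromosome 13 is highest in both, at 29.2% and 2.38 per Mb, while chromosome 11 is lowest in the upper panel only.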

How the data were processed

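Chromatin of formaldehyde-fixed nuclei from powdered frozen gland was sonicated and precipitated with a STAT5A or an H3K4me3 antibody, per the labels' protocols. CASAVA, Bowtie and HOMER, with mm9, are named in the submitters' processing notes, without versions or settings, and whether the input library was used in peak calling is not given. The authors deposited 1 list per library, with a score for each peak or region. All peaks had 1 fixed width.

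Gaps were measured edge to edge, and a peak that overlapped or touched a region counted as on it. The 87 STAT5A peaks on X were left out. The length of sequence at each gap was counted exactly between the first and last coordinate of either list on a chromosome, as start positions of windows of peak width. Shares have exact (Clopper-Pearson) and densities exact Poisson 95% intervals. Gap, length and spacing functions were tested on simulated intervals. Python 3.11.15, numpy 2.4.6, pandas 2.3.3, scipy 1.17.1 and matplotlib 3.10.9 were used. The group of peaks and the choices of comparison were made with earlier results of these data known. Peaks and intervals named are the 10 highest far scores, the 5 largest gaps, 3 peaks on either side of the threshold, the 3 largest clusters, the 5 fullest intervals, the longest interval, and the chromosomes of highest and lowest far share; the neighbours of the highest peaks and chromosomes 7 and 9 were added after their values were seen. Expression at parturition and the other samples were not used here, and no sequence or annotation of mm9 was used, so no binding motif was searched for. Alternatives changed the threshold, the regions, the peaks, the merging distance and the chromosomes.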

Additional observations from a re-analysis of the deposited data

How the results depend on the processing

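Of 42 alternatives, 25 left a value inside the 95% interval of the reported one. The median score and the share of high-scoring far peaks stayed inside it under all 7 alternatives tried for each. The far share of 18.0% was 31.6% beyond 50 kb, 8.14% beyond 200 kb, 20.2% without regions of minimum width, 31.0% with the better-scoring 50% of regions, 19.1% with peaks within 12.5 kb merged and 19.3% for the better-scoring 50% of peaks. The far density was 0.28 times that at 10 to 100 kb. With thresholds of 50 and 200 kb the ratio was 0.36 and 0.20, and the compared band then changed to 10 to 50 kb and 10 to 200 kb. It was 0.31 with the better-scoring 50% of regions and 0.30 with merged peaks. The clustered share of 24.6% was 14.6% within 5 kb, 46.5% within 50 kb and 19.1% for the better-scoring 50% of peaks. The median width of the nearest region was 1998 bp with the better-scoring 50% of regions. The density on chromosome 13 relative to the others, with alternatives chosen after seeing the data, was 2.68 beyond 200 kb, 1.63 for the better-scoring 50% of peaks and 1.39 without the peaks of its 5 fullest intervals, their length kept. The definitions fix the direction in which a changed threshold or fewer regions move the far share, and a changed distance the clustered share. The causes of the other shifts were not tested. No paired analysis was possible because each group used holds 1 library and no result comes from a test. Depth is unknown, so absent peaks in long intervals may be below detection.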

Other observations

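The X chromosome, outside the rule, held 31 peaks beyond 100 kb from H3K4me3 among its 87 STAT5A peaks (35.6%, 25.6 to 46.6). Per Mb of far sequence these came to 0.27 peaks (0.18 to 0.38), below the density of each of the 19 autosomes, of which chromosome 7 was the lowest at 0.73. The remaining X peaks, pooled over all distances up to 100 kb, came to 1.18 per Mb (0.89 to 1.53). On the autosomes the peaks up to 100 kb came to 6.39 per Mb (6.24 to 6.54), so density on X was lower near H3K4me3 as well as far from it. The far X peaks had a median score of 6.0 and 4 of them were high-scoring. Their highest, at chrX:73844303-73844517 with a score of 121.3, lay 723 kb from the nearest region, and the next highest score was 13.8. The highest far score on X and on the autosomes thus both belonged to a single peak far above the next.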
